A study of Mus musculus with 35 samples.

Results

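The 10 genes described here encode the core regulators of meiotic arrest, meiotic exit and entry into M phase: the cyclins Ccnb1, Ccnb2 and Ccna2, the cyclin-dependent kinase Cdk1, the coactivators Cdc20 and Fzr1 of the anaphase-promoting complex (APC/C), the kinases Plk1, Mos and Wee2, and the APC/C inhibitor Fbxo43. They were chosen by name, as 10 of the 24480 rows of a gene count table, and each was followed over 35 RNA-seq samples of wild-type C57BL/6NRj mouse embryos fertilised in vivo. S-phase zygotes, or both blastomeres of 2-cell (2C) embryos in G1 phase, were microinjected with mRNA for the histone H3K4 demethylase KDM5B fused to yellow fluorescent protein (Kdm5b-yfp, about 1150 ng/µl) or with water. The 4 groups were 10 water-injected zygotes, 10 Kdm5b-injected zygotes, 9 water-injected 2C samples and 6 Kdm5b-injected 2C samples. Zygotes were collected 5 to 6 h after injection, 17 h after ovulation, and 2C embryos about 5 h after injection, between 5.5 and 8 h after division. The design asks whether forced KDM5B expression, which removes H3K4me3, changed transcripts at either stage. No control mRNA was injected, so KDM5B activity and the injection of an mRNA as such cannot be told apart.

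In the mammalian oocyte, CDK1 bound to B-type cyclins drives both meiotic divisions, and it is held off in prophase by the oocyte kinase WEE2 and by APC/C with its coactivator FZR1. The ovulated egg waits in metaphase of the second division because the MOS kinase cascade and EMI2, the protein of Fbxo43, restrain APC/C with its other coactivator, CDC20. At fertilisation EMI2 is destroyed with the help of PLK1, cyclin B is degraded and the egg exits meiosis. The zygote then enters its first mitoses with transcripts that the oocyte stored, many of which are degraded as the embryonic genome starts to be transcribed in the 2C embryo.

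The files held between 8705584 and 17797581 assigned fragments per sample, and the lowest count of any of the 10 genes in any sample was 19. Kdm5b, which checks the injection, took 2.3 to 10.4% of fragments in Kdm5b-injected zygotes and 8.27 to 15.8% in Kdm5b-injected 2C samples, against at most 0.00137% and 0.0189% in the water-injected groups; its row was removed before scaling. Of the 2C samples, 11 were single intact embryos; water 2C replicate 7 held blastomeres of 2 embryos, and water 2C replicates 8 and 9 and Kdm5b 2C replicate 6 held blastomeres of 3 embryos each. Library index numbers were cut into runs of 8 for this report, called strips here. The labels name no such batch, and whether the samples of a run were handled together is not known. The zygote strips held equal numbers of both injections. Among 2C samples, strip 11 held 3 water and 5 Kdm5b samples, and strip 12 held 6 water samples and 1 Kdm5b sample. The pooled water samples were all in strip 12 and the pooled Kdm5b sample was in strip 11, so strip and pooling coincide in part. All 2C embryos grew from thawed zygotes, while zygotes were used fresh, and library preparation fell on a separate day for each stage; stage, thawing and preparation day cannot be told apart. Levels are given as CPM, the fragments of a gene scaled by library size with TMM factors. All 8 oocyte and early embryo markers were above 1 CPM in every group by median. The 7 markers of the 2C stage summed to 9.15 to 45.5 CPM in zygotes and 120 to 571 CPM in 2C samples. The 10 cumulus cell markers summed to at most 24.1 CPM. Of these, 2 were above 1 CPM by median in both zygote groups and in water 2C samples, and 1 in Kdm5b 2C samples. Kitl was the highest, with group medians of 5.08 to 9.56 CPM, and Ptx3 had a median of 0 in all 4 groups.

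Levels between genes were compared as CPM per kilobase of exon. In water-injected zygotes the order by median was Wee2 (257 CPM per kb), Ccnb1 (244), Plk1 (95), Ccna2 (69.1), Fbxo43 (62.9), Ccnb2 (56.1), Cdc20 (39), Fzr1 (38.7), Cdk1 (21.6) and Mos (10.5). The ranges over samples overlapped for 5 pairs of neighbours in this order. Within a sample, Wee2 was above Ccnb1 in 9 of 10 zygotes, Ccna2 above Fbxo43 in 7, Fbxo43 above Ccnb2 in 8, Ccnb2 above Cdc20 in 9 and Cdc20 above Fzr1 in 6. In water-injected 2C samples Wee2 stood alone at the top at 400 CPM per kb. By median, Plk1 had moved from the third to the seventh place at 30.2 CPM per kb. Fzr1, next above it at 33.4, was higher in only 5 of 9 samples, with overlapping ranges. The catalytic subunit Cdk1 lay below its partner cyclin Ccnb1 per kilobase in both stages, at 21.6 against 244 in zygotes and 8.18 against 182 in 2C samples.

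**Figure D1:**
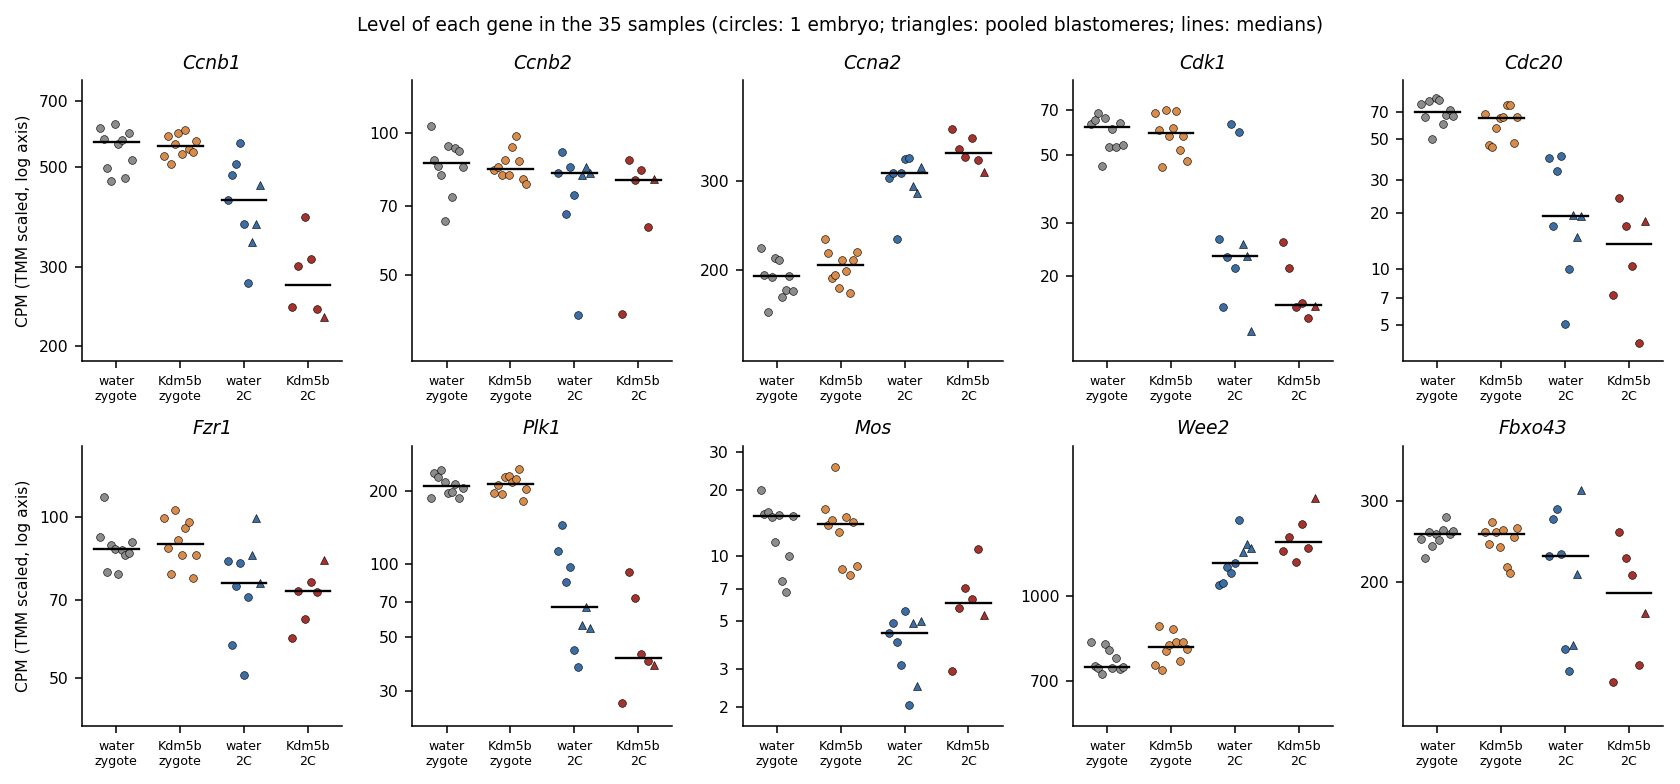
Level of each of the 10 genes in CPM (log axis) for every sample, in water-injected and Kdm5b-injected zygotes (10 each), water 2C (9) and Kdm5b 2C samples (6); circles are single embryos, triangles pooled blastomeres and horizontal lines medians. Ccna2 and Wee2 sit higher in 2C samples than in zygotes, while Cdc20 and Plk1 sit lower in every 2C sample than in every zygote.

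Between stages, most of these genes differed. In water-injected samples, 2 of the 10 were higher in 2C than in zygotes (Ccna2 and Wee2) and 5 were lower (Ccnb1, Cdk1, Cdc20, Plk1 and Mos), by edgeR's quasi-likelihood test at an adjusted p under 0.05. Of all 11968 genes tested, 26.8% were called higher and 25.4% lower, so calls in themselves were common between stages. Of the 5 lower genes, 3 passed a log2 fold change of -1 (background 13%), and none of the higher ones passed 1 (background 9.2%). The median log2 fold change of the 10 genes was -0.28, and that of all genes tested was 0.02. The 2C and zygote samples did not overlap for 2 genes in the higher direction (background 6.64%) and for 3 in the lower direction (background 10.9%).

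In Kdm5b-injected samples the same contrast called 2 genes higher (Ccna2 and Wee2) and 7 lower (the 5 above, with Fzr1 and Fbxo43), where 29.3% and 29.5% of 12390 genes were called. Beyond a log2 fold change of 1 in size, 4 were lower (background 16%) and none was higher (background 10.5%). The groups did not overlap for 2 genes upward (background 12.2%) and for 4 downward (background 16.4%). The median was -0.67 over the 10 genes and 0.01 over all genes. The stage comparisons each share their samples with the injection comparisons below, so their values stand side by side and are not independent.

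Ccnb1 encodes cyclin B1, the main activator of CDK1 at M-phase entry (chromosome 13, 100778739 to 100786486, minus strand, 9 exons; all coordinates are GRCm38). It ranged from 464 to 622 CPM (median 566) in water-injected zygotes and from 277 to 564 (median 422) in water 2C samples, with overlap. The difference was -0.35 ± 0.10 (log2, SE), adjusted p = 0.00599. In Kdm5b-injected embryos it went from 507 to 603 CPM in zygotes (median 555) to 232 to 387 CPM in 2C samples (median 273), without overlap, a log2 fold change of -0.95 ± 0.09 (adjusted p = 6.84e-09). With only the 3 water 2C samples of strip 11, the water difference was -0.23 with adjusted p = 0.0779; with only those of strip 12 it was -0.47 with adjusted p = 0.00122.

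Ccnb2 encodes cyclin B2, the other B-type cyclin of oocytes (chromosome 9, 70407689 to 70421554, minus strand, 9 exons). It stayed between 65.2 and 103 CPM in water-injected zygotes and between 77.8 and 98.3 in Kdm5b-injected zygotes. Water 2C samples ranged from 41.3 to 91.2 CPM (median 82.1) and Kdm5b 2C samples from 41.5 to 87.7 (median 79.5), and 1 sample of each lay far below the rest: water 2C replicate 6 and Kdm5b 2C replicate 1. Its stage differences were not called in either arm, at -0.14 (95% interval -0.38 to 0.10, adjusted p = 0.341) in water and -0.23 (-0.48 to 0.02, adjusted p = 0.115) in Kdm5b samples.

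Cyclin A2 serves S phase and the entry into mitosis. Its gene Ccna2 was 1 of the 2 whose share rose (chromosome 3, 36564865 to 36571996, minus strand, 8 exons). It went from 165 to 220 CPM in water-injected zygotes (median 194) to 230 to 332 in water 2C samples (median 310), and from 180 to 230 in Kdm5b-injected zygotes (median 204) to 312 to 379 in Kdm5b 2C samples (median 340). The groups were apart in both arms, although water 2C replicate 3, at 229.9 CPM, lay only just above the highest water-injected zygote. The log2 fold changes were 0.67 ± 0.08 (adjusted p = 8.21e-08) and 0.77 ± 0.07 (adjusted p = 1.64e-09).

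Wee2 encodes the oocyte-specific kinase that phosphorylates and inhibits CDK1, and it was the most abundant of the 10 per kilobase in every group (chromosome 6, 40442863 to 40466815, plus strand, 12 exons). It ranged from 721 to 826 CPM in water-injected zygotes (median 743) and from 1047 to 1381 in water 2C samples (median 1153). In Kdm5b-injected embryos it ranged from 731 to 882 CPM in zygotes (median 807) and from 1158 to 1514 in 2C samples (median 1256). No 2C sample fell into the range of any zygote. The log2 fold changes were 0.65 ± 0.06 (adjusted p = 4.56e-09) and 0.70 ± 0.07 (adjusted p = 5.72e-09). The values are shares of each library with no spike-in. For Wee2 and Ccna2, a rise in amount and a slower loss than that of other transcripts therefore cannot be told apart. The same limit holds wherever a gene is said to rise.

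Cdk1 encodes the kinase of M-phase promoting factor (chromosome 10, 69336635 to 69352912, minus strand, 8 exons). Water-injected zygotes ranged from 46.1 to 68.3 CPM (median 61.8). Among water 2C samples, 7 lay between 13.2 and 26.6 CPM, while replicate 4 at 62.9 CPM and replicate 6 at 59.4 CPM lay inside the zygote range. These 2 were single intact embryos with 647 and 557 fragments for the gene, against 133 to 320 in the other 7. The difference was -0.94 ± 0.23 (adjusted p = 0.00114). Leaving out each sample in turn gave -1.16 to -0.85, all called. Kdm5b-injected zygotes ranged from 45.5 to 70.2 CPM and Kdm5b 2C samples from 14.7 to 25.9, without overlap and with no sample at the zygote level (-1.67 ± 0.14, adjusted p = 5.4e-10).

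Cdc20 encodes the APC/C coactivator that triggers anaphase (chromosome 4, 118432901 to 118437343, minus strand, 10 exons), and showed the lowest fold change of the 10 in Kdm5b samples. It ranged from 50.2 to 82.8 CPM in water-injected zygotes (median 69.6) and from 5.07 to 40.5 in water 2C samples (median 19.4). Kdm5b-injected zygotes ranged from 45.2 to 76.3 CPM (median 65.2) and Kdm5b 2C samples from 4 to 24 (median 13.6). The stages were apart in both arms, at -1.64 ± 0.25 (adjusted p = 6.44e-06) and -2.18 ± 0.26 (adjusted p = 1.12e-07). Within 2C samples the spread was wide: the highest water 2C sample held 7.98 times the CPM of the lowest, against 1.65 times among water-injected zygotes.

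Fzr1 encodes CDH1, the coactivator that APC/C uses in prophase arrest and in G1 (chromosome 10, 81366879 to 81378370, minus strand, 14 exons). Unlike Cdc20, it stayed close to its zygote level: 78.2 to 109 CPM in water-injected zygotes (median 87.1) and 50.7 to 99.6 in water 2C samples (median 75.3). The difference of -0.20 (95% interval -0.42 to 0.02) was not called, with adjusted p = 0.125. In Kdm5b samples Fzr1 ranged from 76.8 to 103 CPM in zygotes and from 59.5 to 83.3 in 2C, a called difference of -0.32 ± 0.10 (adjusted p = 0.00615). The water estimate was called with single intact embryos (-0.31, adjusted p = 0.032), with no filter on low counts (-0.29, adjusted p = 0.0375), in the single fit of 35 samples (-0.23, adjusted p = 0.0433) and without water 2C replicate 8 (-0.26, adjusted p = 0.0425).

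Plk1 encodes polo-like kinase 1, which acts in spindle assembly and in the destruction of EMI2 (chromosome 7, 122159435 to 122169884, plus strand, 10 exons). It ranged from 187 to 245 CPM in water-injected zygotes (median 210) and from 37.7 to 146 in water 2C samples (median 66.8). Water 2C replicates 1 to 4 held 84.3 to 146 CPM, and replicates 5 to 9 held 37.7 to 66.8 CPM. Kdm5b-injected zygotes ranged from 183 to 247 CPM and Kdm5b 2C samples from 26.8 to 92.9. Every 2C sample was below every zygote, and the log2 fold changes were -1.42 ± 0.19 (adjusted p = 5.1e-07) and -2.02 ± 0.19 (adjusted p = 2.19e-09). The size differed by index strip in water samples: the 3 samples of strip 11 gave -0.89 and the 6 of strip 12 gave -1.83, both called. Strip 12 also held all 3 pooled water samples. Plk1 had a mean of 59.3 CPM in these and 87.1 CPM in the 6 intact ones. Which of strip and pooling went with the size was not tested.

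Mos encodes the kinase at the head of the mitogen-activated protein kinase cascade of metaphase arrest; it is a gene of 1 exon (chromosome 4, 3870658 to 3872105, minus strand). It was the least abundant of the 10, with 6.79 to 20.1 CPM in water-injected zygotes (median 15.2) and 2.03 to 5.53 in water 2C samples (median 4.4), from 92 to 365 and 19 to 60 fragments. These groups were apart, at -1.69 ± 0.24 (adjusted p = 2.22e-06). Kdm5b-injected zygotes ranged from 8.12 to 25.8 CPM and Kdm5b 2C samples from 2.91 to 10.8, which overlapped, because Kdm5b 2C replicate 5 reached 10.8 CPM. That difference was -1.11 ± 0.27 (adjusted p = 0.001).

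Fbxo43 encodes EMI2, which inhibits APC/C in the metaphase-arrested egg (chromosome 15, 36150060 to 36164884, minus strand, 5 exons). In water-injected zygotes it lay in a narrow band from 225 to 276 CPM (median 254), while water 2C samples spread from 128 to 316 (median 227). The water difference of -0.18 (95% interval -0.46 to 0.10) was not called (adjusted p = 0.271). Kdm5b-injected zygotes ranged from 209 to 270 CPM and Kdm5b 2C samples from 121 to 256, a called difference of -0.39 ± 0.12 (adjusted p = 0.00854). The water estimate turned to 0.06 with the strip 11 samples alone and was -0.37, called with adjusted p = 0.0258, with those of strip 12 alone.

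**Figure D2:**
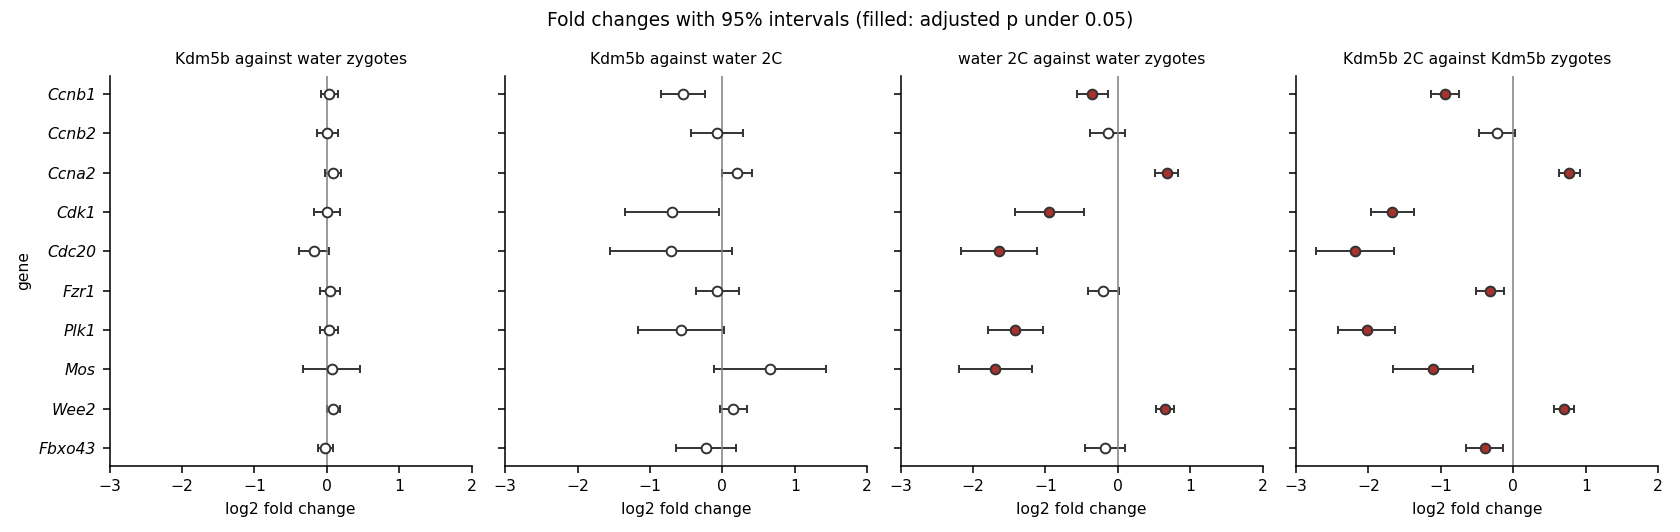
Log2 fold change of each gene with its 95% interval in the 4 comparisons, from edgeR fits over all genes; filled points have an adjusted p under 0.05. In the injection comparisons every point is open, and in the stage comparisons Ccna2 and Wee2 lie to the right of 0 and Cdk1, Cdc20, Plk1 and Mos to the left.

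Short stretches of the promoters and 3' ends were read because they hold elements shared by M-phase genes and by stored maternal transcripts. Cell cycle genes that peak in M phase often carry a CHR element, TTTGAA or TTCGAA, near their start. Of the 10 genes, 7 had a promoter of 300 bases in the RefSeq table (GRCm38.p6, 250 bases before to 50 after the start), and 4 of these 7 held either motif on either strand, against 19.2% of all 32851 promoters. The matches of Cdk1, Cdc20 and Plk1 and the match of Ccnb2 nearest its start are shown with TTTGAA in capitals, 5′ to 3′ on the gene's strand.
Cdk1, 71 bases before the start, chr10:69352967-69352994: tgattggctccTTTGAAcgtctacgtgc
Cdk1, 15 bases before the start, chr10:69352911-69352938: accgcggcgagTTTGAAactgctggcac
Cdc20, 18 bases before the start, chr4:118437345-118437372: gacagttgggtTTTGAAggagccaatga
Plk1, 30 bases after the start, chr7:122159454-122159481: ccagcgccgcgTTTGAAttcggggagga
Ccnb2, 4 bases after the start, chr9:70421534-70421561: gcggcgcggtaTTTGAAtcgcggaccgg

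Ccnb2 held another match 167 bases before its start, and these letters were not in the windows of Ccnb1, Fzr1 and Wee2.

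Stored maternal transcripts are often held silent and later activated through a cytoplasmic polyadenylation element (CPE), TTTTAT or TTTTAAT, close to the AATAAA signal. In the last 100 bases of the 3' end (GENCODE vM21 transcripts, GRCm38), 2 of the 9 members with a long enough end held such an element on the transcript strand, against 17.8% of 19844 genes, and 6 of the 9 held AATAAA, against 64.5%. The transcript end used lay 1489 bases from the counted end for Cdk1 and 657 bases from it for Fzr1. The 2 members with a match were Ccnb1 and Wee2, 22.2% of the 9 and near the share of all genes. Matches were counted on either side of AATAAA. In Wee2 the TTTTAAT match lies 13 bases before AATAAA, while the TTTTAT match lies after it. The matched letters are in capitals.
Ccnb1, chr13:100778776-100778804, minus strand: ctcatttgctgTTTTAATttatacatctg
Wee2, chr6:40466757-40466785, plus strand: tttttaacataTTTTAATccagatcattg
Wee2, chr6:40466785-40466812, plus strand: gtaaataaagaTTTTATcttatccaaag

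In zygotes, injection of Kdm5b-yfp mRNA left the 10 genes close to the water controls. None was called in either direction (edgeR's quasi-likelihood test, background 0.0168% higher and 0.117% lower of 11933 genes), none had an unadjusted p under 0.05 (background 10.3% in either direction), and DESeq2 and limma voom called none. The log2 fold changes ran from -0.18 for Cdc20 (95% interval -0.39 to 0.02, adjusted p = 0.55) to 0.09 for Wee2 (-0.0028 to 0.18, adjusted p = 0.499). Ccnb1 had a median of 566 CPM with water and 555 with Kdm5b (0.03, 95% interval -0.08 to 0.15). The widest interval was that of Mos, -0.32 to 0.46. The injection groups overlapped for all 10 genes in zygotes and for all 10 in 2C samples. The share of all genes with such overlap was not counted, so this does not set the 10 apart from other genes.

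In 2C samples none of the 10 genes was called either, where 0% of 12244 genes were called higher and 0.0245% lower. At an unadjusted p under 0.05, 2 of the 10 were lower, Ccnb1 and Cdk1, where 4.91% of all genes were. DESeq2 called 1 of the 10, Ccnb1, and gave no adjusted p for Cdc20 and Mos, while limma voom called none. Ccnb1 held 277 to 564 CPM in the 9 water samples and 232 to 387 CPM in the 6 Kdm5b samples, and 3 of the 6 lay below the lowest water sample. Its log2 fold change was -0.55 ± 0.15 (95% interval -0.85 to -0.24, unadjusted p = 0.00112, adjusted p = 0.244). The call rested on the fit: DESeq2 gave an adjusted p = 0.028, all 35 samples in a single edgeR fit gave 0.00334 and index strip as a covariate gave 0.0303 at -0.66, while strip 11 alone gave 0.0809 at -0.67. These fits also called more genes: 0.351% of all genes were lower with DESeq2, 2.4% in the single fit, 1.51% with the strip covariate and 0.813% within strip 11. The DESeq2 share is over 24479 genes, including those with no adjusted p, so it is not directly comparable with the other shares.

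Among the other genes of the 2C injection comparison, the intervals were wide for Cdk1, Cdc20, Plk1 and Mos. They were narrower for Wee2 (0.15, -0.04 to 0.34) and Ccna2 (0.20, -0.01 to 0.41), and Fbxo43 gave -0.22 (-0.64 to 0.19). Cdk1 was -0.70 (-1.35 to -0.05, adjusted p = 0.478), and it was -0.19 with the samples of strip 11 alone, which leave out water 2C replicates 4 and 6. Cdc20 was -0.71 (-1.56 to 0.13), Plk1 -0.57 (-1.17 to 0.03) and Mos 0.66 (-0.11 to 1.43), none of them called. With strip 11 alone Cdc20 gave -0.97, Plk1 -1.07 and Mos 0.30, and with index strip as a covariate Cdc20 gave -1.27 and Plk1 -0.90, none of them called. Fzr1, at -0.07, and Ccnb2, at -0.07, had intervals of -0.37 to 0.23 and -0.43 to 0.28. The 10 genes had a median of -0.15, and all genes tested had -0.0028.

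Whether injection acted differently at the 2 stages was tested as an interaction, in which 0.109% of 13778 genes were called and none of the 10. At an unadjusted p under 0.05, 3 of the 10 had a lower interaction term, Ccnb1, Cdk1 and Plk1, where 5.33% of all genes did. Ccnb1 gave -0.58 ± 0.15 (adjusted p = 0.112) with edgeR and -0.58 (adjusted p = 0.0224) with DESeq2, which called 0.29% of 24479 genes lower, with no filter on low counts.

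Ratios within a sample do not depend on scaling. The ratio of Cdc20 to Fzr1, the 2 APC/C coactivators, in counts per kb ran from 0.714 to 1.32 in water-injected zygotes (median 1.03) and from 0.128 to 0.622 in water 2C samples (median 0.325). All 9 water 2C samples lay below the lowest water-injected zygote, and the mean log2 ratio differed by -1.66 (exact permutation test, two-sided: p = 2.17e-05, which is the lowest possible with these group sizes; adjusted over 8 tests 0.000173). In Kdm5b samples it went from 0.673 to 1.01 in zygotes to 0.0703 to 0.417 in 2C, a difference of -2.06, 6 of 6 below the lowest zygote (exact permutation p = 0.00025, adjusted 0.000999). The injection differences were not called, in zygotes (-0.23, permutation p = 0.0636, adjusted 0.102) or in 2C samples (-0.64, exact permutation p = 0.195, adjusted 0.222).

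The ratio of Ccnb1 to Ccnb2 was 3.39 to 6.34 in water-injected zygotes (median 4.01), 3.8 to 4.88 in Kdm5b-injected zygotes (median 4.24), 2.79 to 4.99 in water 2C samples (median 3.49) and 1.93 to 3.91 in Kdm5b 2C samples (median 2.52). Of the 6 Kdm5b 2C samples, 4 lay below the lowest water 2C sample, while replicates 1 and 3, at 3.91 and 3.24, lay inside its range. The log2 difference between these groups was -0.46 (two-sided exact permutation test, p = 0.0192, adjusted over 8 tests 0.0384). It fell short of the threshold in single intact embryos only (-0.49, adjusted p = 0.0606, exact permutation) and by mean ranks (adjusted p = 0.0511). Between stages the ratio differed in Kdm5b samples (-0.70, exact permutation p = 0.0005, adjusted 0.00133) and was not called in water samples (-0.22, exact permutation p = 0.0976, adjusted 0.13).

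**Figure D3:**
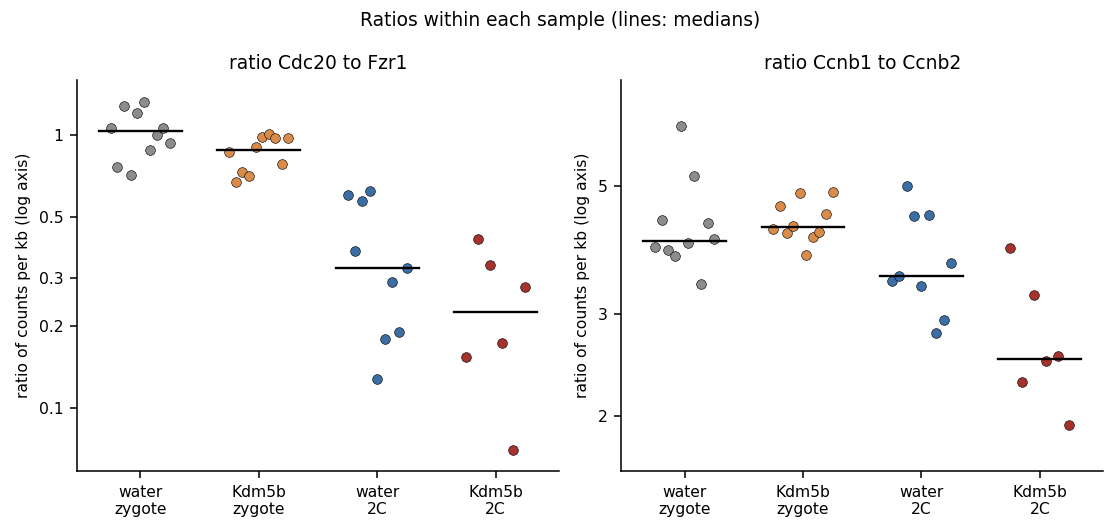
Ratio of counts per kilobase of Cdc20 to Fzr1 (left) and of Ccnb1 to Ccnb2 (right) in every sample of the 4 groups, on log axes; lines are medians. The Cdc20 to Fzr1 ratio of each 2C sample lies below 0.673, the lowest zygote value, and the Ccnb1 to Ccnb2 ratios of Kdm5b 2C samples reach down to 1.93.

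The spread among 2C samples differed between the genes. In the 9 water 2C samples the coefficient of variation was 60.1% for Cdk1, 57.4% for Cdc20 and 45.7% for Plk1. Over 7120 genes with a mean of at least 10 CPM the median was 26.5% and the 90th percentile 48.6%. Of the 10 members, 9 reached this mean. Their median was 21.3%, and 4 of them lay above the median of all genes. Replicates 4 and 6 were the high ones for Cdk1. In the 6 Kdm5b 2C samples Cdk1 had 23.8%, below Cdc20 (56%), Plk1 (48.2%), Mos (40.6%) and Fbxo43 (28.7%). There the median over 7002 genes was 22% and the 90th percentile 41.2%, at the same minimum mean. Mos, with a mean of 6.34 CPM, was below that minimum. The 9 members above it had a median of 23.8%, and 5 lay above the median of all genes. Wee2 and Ccna2, whose share rose, had 8.96% and 10.4% in water 2C samples. In water-injected zygotes the 10 genes lay between 4.91% for Wee2 and 31.4% for Mos, with a median of 10% against 13.3% over all genes.

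Individual 2C embryos combined these levels differently. Water 2C replicate 6 was the lowest of its group for Ccnb1 (277 CPM), Ccnb2 (41.3), Plk1 (37.7), Mos (2.03) and Fbxo43 (128), and the highest for Ccna2 (332) and Wee2 (1381), yet held Cdk1 at the zygote level. Kdm5b 2C replicate 1 was the lowest of its group for Ccnb2 (41.5 CPM), Plk1 (26.8), Mos (2.91) and Fbxo43 (121), and the highest for Ccna2 (379) and Cdk1 (25.9). The least Cdc20 was seen in water 2C replicate 5 (5.07 CPM) and in Kdm5b 2C replicate 5 (4 CPM), both from strip 12. The 3 pooled water samples held 54.7 to 66.8 CPM of Plk1 and 14.9 to 19.5 CPM of Cdc20, within the range of the 6 intact ones.

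**Figure D4:**
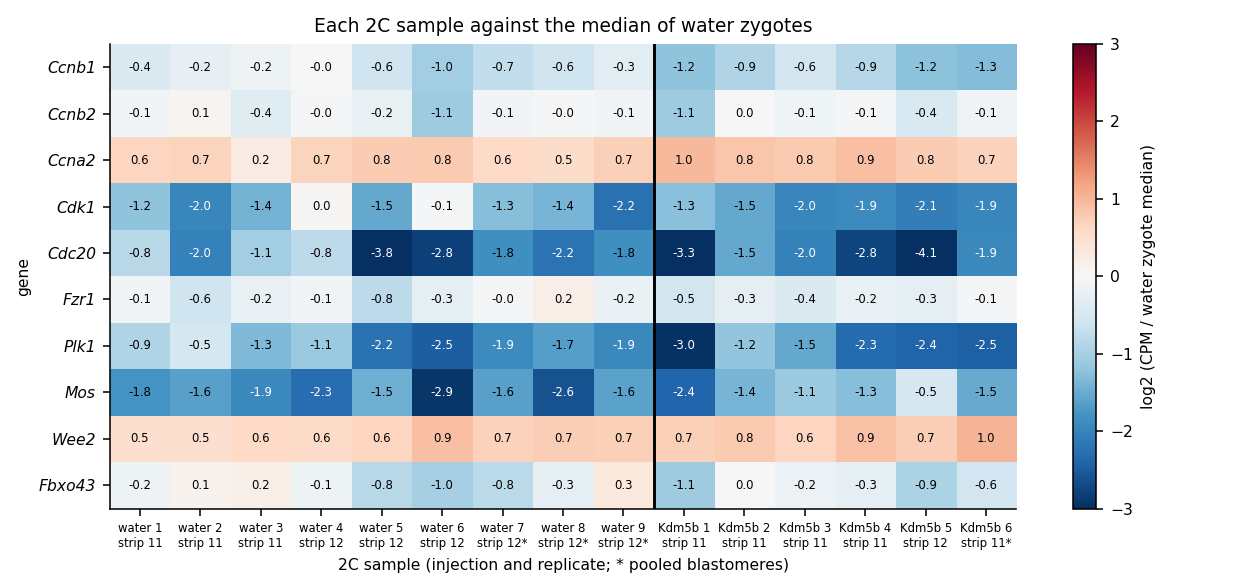
Log2 of the CPM of each gene in each 2C sample over the median of water-injected zygotes, with index strip and pooled samples marked; red is higher and blue lower, and the numbers are the log2 values. Ccna2 and Wee2 are above 0 in all 15 samples, Cdc20, Plk1 and Mos are below 0 in all 15, and Cdk1 is near 0 only in water 2C replicates 4 and 6.

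Correlations between members were computed on log2 CPM within each group, since pooling would join separate stages. Of 180 pairs over the 4 groups, 19 had an unadjusted permutation p under 0.05 and none an adjusted one. In water 2C samples Ccnb1 and Fbxo43 had r = 0.823 and rho = 0.8 over 9 samples (exact permutation p = 0.00658 and 0.0138, adjusted 0.395 and 0.599). Without the 2 samples farthest from the median of Ccnb1, r was 0.892. In the 9 water 2C samples Plk1 and Wee2 had r = -0.854 and rho = -0.833 (exact permutation p = 0.00348 and 0.00827, adjusted 0.395 and 0.599). Without the 2 samples farthest from the median of Plk1, r was -0.731. These pairs did not hold their sign over the groups: Ccnb1 and Fbxo43 had r = 0.751 in Kdm5b 2C samples but -0.249 and -0.533 in water and Kdm5b zygotes, and Plk1 and Wee2 had r = -0.203 in Kdm5b 2C samples, -0.413 in water zygotes and 0.088 in Kdm5b zygotes, none of them with an unadjusted permutation p under 0.05.

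The wider pathway, in lists named in the processing notes, gave the members' surroundings. By edgeR's test no listed gene was called in either injection comparison. At an unadjusted p under 0.05 there were 12 of 88 in zygotes (10.3% of all genes) and 8 of 89 in 2C samples (9.41% of all genes). Limma voom called none, and DESeq2 called 1 in each, Akap1 and Anapc2, which were named after their values were seen. With no filter on low counts, DESeq2 called 24 of 24479 genes higher and 77 lower in zygotes. In 2C samples it called 0.351% lower, and the share called higher is not given here. In the water stage comparison, 8 of 22 tested genes of CDK activation were higher and 7 lower; these and the list counts that follow stand beside 26.8% higher and 25.4% lower over all genes in water samples, and 29.3% and 29.5% in Kdm5b samples. The median log2 fold change of the lists in that comparison was 0.01 for CDK activation, -0.21 for APC/C, 0.45 for the MAPK arm, 0.13 for M-phase kinases and phosphatases and 0.28 for the cAMP arm, beside 0.02 over all genes. Ccne1, cyclin E1 of the G1 to S transition, rose by 2.79 (log2) from 8.22 ± 2.76 to 55.5 ± 39.7 CPM (SD, n = 10 and 9, adjusted p = 1.19e-07). Ccnb3, a cyclin of female meiosis, fell by 1.54 from 100.4 ± 11.7 to 33.8 ± 10.7 CPM (adjusted p = 5.3e-09). Cdc25a, a phosphatase that activates CDKs, fell by 1.19 and the CDK-activating kinase Cdk7 fell by 1.41.

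For APC/C subunits, partners and inhibitors, 5 of 22 were higher and 9 lower in the water stage comparison (26.8% and 25.4% of all genes), and 6 and 11 in the Kdm5b one (29.3% and 29.5%). Fbxo5, which encodes EMI1, the mitotic relative of EMI2, fell by 1.15 in water samples (adjusted p = 8.17e-07) and by 1.69 in Kdm5b samples. The APC/C subunit Anapc7 fell by 1.96 and 2.24, from 58.8 ± 13.6 to 14.8 ± 9.85 CPM in water samples, while the subunit Anapc1 rose by 0.63 and 0.84. Btrc, the ubiquitin ligase adaptor that recognises EMI proteins phosphorylated by PLK1, fell by 1.73 in water samples.

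Of the 7 genes of the MAPK arm of cytostatic factor, 4 were higher and none lower in water samples (26.8% and 25.4% of all genes), and 6 were higher and 1 lower in Kdm5b samples (29.3% and 29.5%). Map2k1, the kinase MEK1 downstream of MOS, rose by 0.67 in water and 0.69 in Kdm5b samples, and Mapk3, or ERK1, by 0.45 and 0.55. Among M-phase kinases and phosphatases 9 of 24 were higher and 7 lower in water samples (11 and 6 in Kdm5b samples). Aurka, the Aurora A kinase that activates PLK1, fell by 1.70 from 299 ± 17.4 to 90.4 ± 44 CPM in water samples, and Plk2 rose by 2.23. Mastl, the Greatwall kinase, fell by 0.30 (adjusted p = 0.00358). In the cAMP arm of prophase arrest 5 of 13 were higher and 2 lower in water samples, and 6 and 2 in Kdm5b samples; Prkar1a, a regulatory subunit of protein kinase A, fell by 0.85 and Prkar2b rose by 0.72.

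For each member, the other gene with the most similar log2 CPM over all 35 samples was named among 13768 genes, as a description, since the 4 groups differ by stage and share library day. Wee2 went with Ireb2 (r = 0.984), Plk1 with Brix1 (0.971), Ccna2 with Phf1 (0.951), Cdk1 with Ska3 (0.95), Cdc20 with Setdb1 (0.943), Ccnb1 with Dnajb4 (0.931), Fbxo43 with E330021D16Rik (0.919), Mos with Stom (0.881), Ccnb2 with Ptges2 (0.836) and Fzr1 with Cdk5rap1 (0.811). Among the members themselves, Ccna2 and Wee2 (r = 0.92) and Cdc20 and Plk1 (r = 0.917) were each other's nearest.

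Exons of Ccna2 overlap those of Exosc9, and exons of Cdc20 those of Elovl1, each on the opposite strand; counting used strand. RefSeq lists pseudogenes named after Ccnb1 and Ccnb2, and fragments that map equally to several places were not counted, so the level of these 2 genes is uncertain to that extent.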

How the data were processed

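Single embryos or pooled blastomeres were sequenced as stranded total RNA (SMART-Seq Stranded). The authors trimmed reads with fastp 0.21.0, aligned them to GRCm38 with STAR 2.7.3a and counted fragments per gene with featureCounts 1.5.1, by strand and without multimapping fragments. PCR duplicates were not removed. The deposited counts, not normalized, were used as they stand; a second deposited table was not used. The Kdm5b row was left out. Genes passing edgeR's filterByExpr (minimum count 10) were fitted per comparison with edgeR 4.0.16 (TMM, quasi-likelihood F test, Benjamini-Hochberg adjustment over all genes tested; call: adjusted p under 0.05); the code was tested on simulated data. Standard errors are the log2 fold change over the root of F. Ratios took counts per kb with 0.5 counts added and a permutation test (exact where a group had under 10 samples, otherwise 100000 resamples), adjusted over 8 tests. DESeq2 1.42.0, limma 3.58.1, other filters, scalings, sample sets and leaving out each sample were alternatives. Intervals are those of the log2 fold change, and their width depends on the counts, the number of samples and the spread between samples. Which embryos shared a mother was not given. Samples were treated as independent, and the p-values rest on that. The 10 genes are the members named; from each of 5 pathway lists (CDK activation, APC/C, MAPK arm, M-phase kinases and phosphatases, cAMP arm), up to 3 higher and 3 lower genes with the smallest p were eligible to be named. Members and lists were chosen with earlier results of these data known.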

Additional observations from a re-analysis of the deposited data

Results flagged for a closer look

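Of 48 groups of values examined (10 genes and 2 ratios in each of 4 groups), 4 held a sample whose gap to its nearest neighbour was larger than Dixon's 95% limit of the group's range; chance flags about 1 in 20 groups. Water 2C replicate 6 had 41.3 CPM of Ccnb2, with the next sample at 67.5 CPM. Water 2C replicate 3 had 229.9 CPM of Ccna2, with the next at 284 CPM. Water-injected zygote replicate 2 had 109 CPM of Fzr1, with the next at 92.1 CPM. Kdm5b-injected zygote replicate 4 had 25.8 CPM of Mos, with the next at 16.3 CPM. No explanation was tested. No member differed between stages in its response to injection by edgeR's interaction test; with DESeq2, Ccnb1 did.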

How the results depend on the processing

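The 16 called stage differences of members kept their direction under every alternative run, and leaving out single samples ended no call; leaving out single samples gave 2 higher and 5 to 6 lower members in water samples, 2 higher and 7 to 8 lower in Kdm5b samples, and 0 for injection. With 2C samples of strip 11, 4 were lower in water samples, Ccnb1 losing its call (adjusted p = 0.0779). Requiring a log2 fold change over 1 in size left 0 higher and 3 lower members in water samples, and 0 higher and 4 lower in Kdm5b samples. In the 2C injection comparison, DESeq2, the single fit of 35 samples and the index strip covariate each called 1 member lower, Ccnb1. Their shares over all genes were 0.351% (of 24479, with no filter on low counts), 2.4% and 1.51%, against 0.0245% in the main fit. DESeq2 also called 1 member, Ccnb1, in the interaction. The Ccnb1 to Ccnb2 difference between 2C groups lost its call in intact embryos (-0.49) and by mean ranks (-5.28 ranks). Fbxo43 in water samples turned to 0.0628 in 2C samples of strip 11; fits within single strips were chosen after seeing the data. Near 0 in zygotes, Cdk1 turned to -0.00057 (DESeq2 size factors), -0.00084 (DESeq2), -0.0017 (mean of 50 counts), -0.0028 (Kdm5b row kept) and -0.0058 (single fit), and Ccnb2 to -0.0055 (limma voom), -0.00045 (mean of 50 counts), -0.0023 (Kdm5b row kept) and -0.00603 (single fit). Leaving out each sample gave -0.031 to 0.041 for Cdk1, -0.031 to 0.037 for Ccnb2, -0.079 to 0.15 for Mos and -0.0086 to 0.047 for Plk1 in zygotes, and -0.15 to 0.042 for Ccnb2 in 2C samples; the cause was not tested.

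Replicate numbers did not pair the samples: 1 of 10 zygote pairs and 0 of 6 2C pairs correlated above 0.1. With the replicate block Cdk1 in zygotes was -0.00014 and Fzr1 in 2C samples 0.057; no count of called members changed beyond 1.5 times. Counts as low as 19 limit Mos most.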
